A study of Homo sapiens with 16 samples.

Results

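The genes described here are 10 transcription factors and small regulators of the rapid response to stimuli: FOS, FOSB, FOSL2, JUN, JUNB, JUND, EGR1, IER2, IER5 and MYC. They were chosen by name, as a list of immediate early genes with MYC added, with earlier results of these data known. Each matched 1 of the 60605 gene identifiers in the count tables. The assay was PRO-seq, in which nuclei are allowed to extend nascent RNA so that polymerases engaged on each gene can be counted. The cells were LNCaP, an established line from human prostate cancer that responds to androgen. The cells were measured 60 min after ionizing radiation (IR), with or without enzalutamide, an antiandrogen drug used against prostate cancer. Gene positions are those of RefSeq on GRCh38.p14, the build that the submitters' processing notes name as hg38.

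The samples formed 6 groups of 2 replicates in 2 batches, all of LNCaP cells in serum-containing medium. In batch 1 the groups were labelled mock and 6 Gy IR, and the labels of that batch name no vehicle. In batch 2 they were the DMSO vehicle, 6 Gy IR with vehicle, 10 µM enzalutamide, and 10 µM enzalutamide with 6 Gy IR, where treatment lasted 90 min in all and irradiated cells were collected 60 min after the dose. Each batch 1 replicate was sequenced as libraries t1 and t2, a distinction that the labels do not explain, and their counts were summed. The labels do not say that replicates came from separate cultures, so the p-values measure only the spread between these samples, which may be technical.

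Immediate early genes are transcribed within minutes of a stimulus, without waiting for new protein to be made. Growth factor and stress signals run through MAP kinases to serum response factor (SRF) and its ternary complex partners, which sit on CArG boxes, and to CREB and ATF proteins, which sit on cAMP response elements. FOS and JUN proteins pair to form AP-1, EGR1 is a zinc finger factor of the same early wave, IER2 and IER5 are small regulators named for their early induction, and MYC, paired with MAX, drives ribosome production and growth. The transcripts of many of these genes are short-lived, and PRO-seq reads their transcription rather than the amount of mRNA that accumulates.

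The sequences just before the start sites of 4 of these genes are shown. They were chosen because they carry letters of some of the elements through which this class is known to respond. RefSeq promoter sequences on GRCh38.p14 were found for 9 of the 10 genes, and the 250 bases before each start were searched on both strands. Capitals mark CArG boxes in EGR1, and in all 4 sequences the letters TGACG, the core of the cAMP response element, read on either strand. They are written 5′ to 3′ on the strand of the gene.
FOS: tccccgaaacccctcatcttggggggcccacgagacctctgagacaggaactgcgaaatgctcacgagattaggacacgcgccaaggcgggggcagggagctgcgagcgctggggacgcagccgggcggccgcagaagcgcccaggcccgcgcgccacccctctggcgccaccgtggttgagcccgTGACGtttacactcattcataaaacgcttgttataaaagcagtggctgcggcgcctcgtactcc
JUN: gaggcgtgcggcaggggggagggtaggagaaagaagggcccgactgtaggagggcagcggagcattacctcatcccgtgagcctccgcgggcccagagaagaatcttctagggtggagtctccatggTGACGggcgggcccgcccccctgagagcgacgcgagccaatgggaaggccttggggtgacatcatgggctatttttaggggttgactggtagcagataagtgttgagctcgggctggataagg
JUND: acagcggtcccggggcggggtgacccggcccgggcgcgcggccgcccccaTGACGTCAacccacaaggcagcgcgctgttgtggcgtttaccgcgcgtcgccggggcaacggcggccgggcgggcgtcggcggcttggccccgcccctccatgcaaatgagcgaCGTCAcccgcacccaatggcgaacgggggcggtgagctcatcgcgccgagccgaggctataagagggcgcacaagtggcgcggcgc
EGR1: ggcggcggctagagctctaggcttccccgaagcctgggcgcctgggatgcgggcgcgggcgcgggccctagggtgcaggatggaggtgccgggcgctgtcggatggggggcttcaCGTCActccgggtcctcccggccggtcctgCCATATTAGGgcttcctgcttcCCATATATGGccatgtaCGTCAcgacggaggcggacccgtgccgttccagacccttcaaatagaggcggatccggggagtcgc
The intervals are chr14:75278578-75278827 on the plus strand for FOS, chr1:58784048-58784297 on the minus strand for JUN, chr19:18281623-18281872 on the minus strand for JUND and chr5:138465229-138465478 on the plus strand for EGR1.

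Within the window searched, EGR1 was the only gene of the 9 with a CArG box. It had 2, from 105 to 96 and from 83 to 74 bases before the start. That box was present in 1.16% of the 35116 promoters searched. JUND alone held the full cAMP response element TGACGTCA, from 200 to 193 bases before its start, against 1.65% of all promoters. The shorter TGACG, which was added after the sequences had been read and which the full element contains, was found in 8 of the 9, all except IER5, and in 21.2% of all promoters. TATAAA was found in FOS, FOSB and JUNB and in 10.7% of promoters. None of the 9 held the AP-1 site TGACTCA (4.2% of promoters), the E-box CACGTG (6.34%), the EGR site GCGTGGGCG (0.72%) or an NF-kappa-B site (5.21%). Sites given here in letters were matched exactly, so variants of them were not counted. Bases further upstream were not searched, so the lack of a match does not show that a gene, FOS included, has no such site. A match describes the letters of the window and says nothing of which factor bound there.

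Library totals were between 3438642 and 9363458 counts in the 8 libraries of batch 1, between 8022989 and 16851473 after summing t1 and t2, and between 10494563 and 19905824 in batch 2. All 8 LNCaP marker genes examined, among them KLK3, KLK2 and HOXB13, had a mean over 1 CPM (counts scaled to the library total), with a summed level of 1740 to 2420 CPM, while 0 of 3 immune markers did (summed 0.477 to 1.35 CPM). Of the other markers, 2 of 3 for basal cells (summed 4.32 to 8.94 CPM) had a mean over 1 CPM. So did 1 of 3 for fibroblasts (8.04 to 12.7) and 3 of 3 for endothelium (15.3 to 36.4). The radiation label was checked on the p53 target CDKN1A, which was at 42.8 and 46.8 CPM in mock against 546 and 579 in irradiated samples of batch 1, and at 37 to 55.6 against 301 to 360 in batch 2. For enzalutamide, TMPRSS2, a gene that androgen induces, differed by -0.58 on the log2 scale averaged over IR (edgeR adjusted p = 0.00123), whereas KLK3 at -0.66 did not pass (adjusted p = 0.69). Within each group of batch 1, libraries with the same t number were alike across genes (r of 0.968 and 0.978 in mock, 0.981 and 0.984 after IR). There the t1 libraries were less like the t2 libraries (0.907 to 0.947 in mock, 0.898 to 0.94 after IR). Between mock and IR the libraries did not group by their t number. Across genes, mock t1 resembled irradiated t2 (r of 0.936 to 0.969) and mock t2 resembled irradiated t1 (0.942 to 0.964) more than each resembled the library of its own t number in the other group (0.905 to 0.942 for t1, 0.872 to 0.905 for t2). The cause was not tested, and for the batch 1 results below the values of t1 and t2 alone are given beside the summed ones.

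At 60 min after 6 Gy in batch 2, IER2, JUND and IER5 were transcribed more and MYC less, by modest amounts. Averaged over cells with and without enzalutamide, IER2 was 1.39-fold, JUND 1.34-fold and IER5 1.23-fold higher, and MYC was at 0.76 of its unirradiated level. These 4 of 10 genes passed an adjusted p of 0.05, in a comparison where 4.71% of the 28651 genes tested did (2.80% higher and 1.91% lower). FOS, FOSB and JUN did not pass, with 95% intervals of the log2 change from -0.61 to 0.28 for FOS, from -0.74 to 0.20 for FOSB and from -0.14 to 0.17 for JUN.

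**Figure D1:**
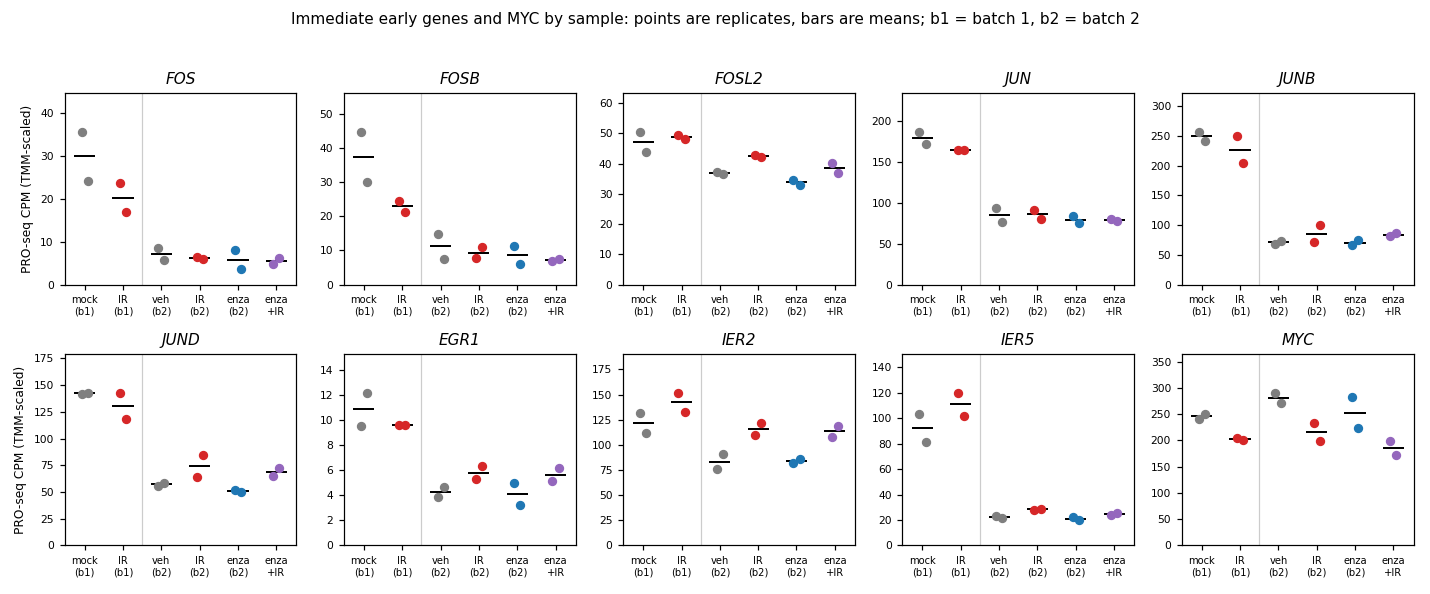
Transcription of each of the 10 genes in every sample, as TMM-scaled CPM on a linear axis from 0; points are replicates, bars are group means, and the vertical line separates batch 1 (mock, IR) from batch 2 (vehicle, IR with vehicle, enzalutamide, enzalutamide with IR). IER2, JUND, IER5 and EGR1 sat higher in all 4 irradiated samples of batch 2 than in all 4 others, while FOS, FOSB and JUN overlapped there. The share of all genes that separate in this way was not counted, so the separation only describes these samples.

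IER2 (ENSG00000160888, chromosome 19, 13150411 to 13154911) encodes a small nuclear protein induced early by growth factors. Its level was 76.3 and 90.6 CPM in vehicle, 110 and 122 after IR with vehicle, 82 and 86.2 in enzalutamide, and 108 and 119 in enzalutamide with IR. All 4 irradiated samples of batch 2 lay above all 4 others. Here and for the genes below, the share of all genes without overlap was not counted, so a lack of overlap is only a description. The change was 0.49 in log2 terms with vehicle (SE 0.101, edgeR adjusted p = 0.0329), the only 1 of the 10 genes to pass there against 1.10% of all genes. Under enzalutamide it was 0.45 (SE 0.102), with an adjusted p of 0.0756 without and 0.000271 with the replicate block, and 0.47 (SE 0.0663, adjusted p = 0.000636) averaged over enzalutamide. The averaged call held with each library left out in turn (adjusted p of 0.000534 to 0.00421). The call with vehicle was lost without vehicle replicate 3 (0.54), without either irradiated vehicle replicate (0.0859 without replicate 3, 0.268 without replicate 4), and without either sample of enzalutamide with IR, which entered only the estimate of spread (0.0554 and 0.0544). It was also lost with total-count scaling (0.0598), whereas the change under enzalutamide passed with DESeq2 (0.0154) and without the filter on low counts (0.00335).

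In batch 1, IER2 was at 132 and 112 CPM in mock and at 152 and 133 after IR, again without overlap, though narrowly. The log2 change was 0.22 (SE 0.129, edgeR adjusted p = 0.597). It was 0.58 in the t1 libraries alone (adjusted p = 0.0186) and -0.11 in the t2 libraries alone (adjusted p = 0.472). Over both batches without enzalutamide, the change was 0.35 (SE 0.0875, adjusted p = 0.0252), 1 of 2 calls among the 10 genes in a comparison that called 4.05% of all genes. That call did not survive leaving out mock replicate 2 (0.0567), batch 1 irradiated replicate 1 (0.0712), vehicle replicate 3 (0.103), or irradiated vehicle replicate 3 (0.0736) or 4 (0.0518), nor the use of the t2 libraries alone (0.365). The t2 libraries alone gave 0 of the 10 genes over both batches (2.37% of all genes), and the t1 libraries alone gave 2, IER2 and IER5 (2.93%).

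STX10, which begins 36 bases from IER2 on the opposite strand, also stood higher in batch 2. This syntaxin gene was at 11.7 and 14.4 CPM in vehicle, 16.5 and 17.1 after IR, 12.7 and 15.6 in enzalutamide, and 19.3 and 17.8 in enzalutamide with IR. Its averaged change was 0.40 (SE 0.1, edgeR adjusted p = 0.0381), and in batch 1 it was -0.04. That sum hid opposite signs in batch 1, where STX10 was at 0.35 in t1 alone (adjusted p = 0.246) and at -0.48 in t2 alone (adjusted p = 0.0544), a difference that passed (-0.82, adjusted p = 0.027). The sources used here do not state whether strand entered the counting, so reads near the shared start could be assigned to either gene, and the part of STX10 in the IER2 values was not tested.

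IER5 (ENSG00000162783, chromosome 1, 181088700 to 181092900), known as a gene induced by radiation and by heat shock, was at 23 and 21.4 CPM in vehicle and 27.6 and 29 after IR. In enzalutamide it stood at 22.3 and 19.6, and in enzalutamide with IR at 23.8 and 25.3. The irradiated samples again lay above the others. The change averaged over enzalutamide was 0.30 (SE 0.0779, edgeR adjusted p = 0.0424), and the separate changes were 0.37 with vehicle (adjusted p = 0.235, and 0.037 with the replicate block) and 0.23 under enzalutamide (adjusted p = 0.573). The averaged call was near the threshold. It was lost with total-count scaling (0.0628) and without each library except enzalutamide replicate 3: without vehicle replicate 3 (0.119) or 4 (0.122), irradiated vehicle replicate 3 (0.109) or 4 (0.112), enzalutamide replicate 4 (0.0666), or enzalutamide with IR replicate 3 (0.0737) or 4 (0.113).

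In batch 1, IER5 was transcribed at a higher level throughout, at 103 and 81.4 CPM in mock and 120 and 102 after IR, and here the groups overlapped. The change was 0.27 (SE 0.136, edgeR adjusted p = 0.512, and 0.0164 with the replicate block). It was 0.74 in t1 alone (adjusted p = 0.00455) and -0.22 in t2 alone (adjusted p = 0.295). Without mock replicate 1 the change was 0.45 and passed (adjusted p = 0.0403).

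MYC (ENSG00000136997, chromosome 8, 127735434 to 127742951) moved the other way. It was at 291 and 272 CPM in vehicle and 234 and 199 after IR, and at 282 and 224 in enzalutamide and 199 and 173 in enzalutamide with IR. Within each treatment both irradiated samples lay below both unirradiated ones, but across treatments they met, since irradiated vehicle replicate 3 stood above enzalutamide replicate 4. The log2 change was -0.36 with vehicle (SE 0.124, edgeR adjusted p = 0.3, and 0.0036 with the replicate block), -0.43 under enzalutamide (adjusted p = 0.214, and 0.000711 with the block), and -0.40 on average (SE 0.0818, adjusted p = 0.0129). The average missed the threshold narrowly without vehicle replicate 3 (0.0508), irradiated vehicle replicate 4 (0.0507) or enzalutamide with IR replicate 4 (0.0597).

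The same direction appeared in batch 1, where MYC was at 241 and 251 CPM in mock and at 204 and 200 after IR, without overlap. The change was -0.29 (SE 0.125, edgeR adjusted p = 0.393, and 0.0178 with the replicate block), and it was -0.23 in the t1 and -0.33 in the t2 libraries alone. MYC differed between t1 and t2 in its radiation change by -0.11 (SE 0.228, adjusted p = 0.739). Over both batches without enzalutamide the change was -0.33 (SE 0.0751, adjusted p = 0.011), and its adjusted p was 0.091 without batch 1 irradiated replicate 2, 0.119 without vehicle replicate 3 and 0.163 without irradiated vehicle replicate 4, 0.184 with the t1 and 0.103 with the t2 libraries alone.

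The noncoding genes on either side of MYC had radiation changes of opposite sign. CASC11, which lies 1467 bases from MYC, was at 75 and 74 CPM in mock and 52.6 and 52.6 after IR in batch 1. In batch 2 it was at 48.2 and 46.2 in vehicle, 34 and 31.5 after IR, 48.8 and 41.6 in enzalutamide, and 38.4 and 29.6 in enzalutamide with IR, so the irradiated samples were lower in each setting. It fell by 0.50 on the log2 scale in batch 1 (SE 0.0996, edgeR adjusted p = 0.0142) and by 0.46 on average in batch 2 (SE 0.0863, adjusted p = 0.00693). PVT1, 51573 bases on the other side, was at 1360 and 1500 CPM in vehicle and 1660 and 1640 after IR. Its averaged change was 0.19 (SE 0.0627, adjusted p = 0.0999), opposite in sign to that of MYC. In batch 1 the summed change of PVT1 was 0.29 (adjusted p = 0.583), but its libraries went opposite ways. In t1 PVT1 was at 1040 and 1180 CPM in mock and 870 and 925 after IR (-0.30, adjusted p = 0.427), and in t2 at 648 and 612 in mock and 1300 and 1310 after IR (1.05, adjusted p = 4.85e-05), a difference of 1.35 that passed (adjusted p = 0.00174). CASC11 was lower after IR in both, at -0.36 in t1 alone (adjusted p = 0.106) and -0.68 in t2 alone (adjusted p = 0.000677).

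**Figure D2:**
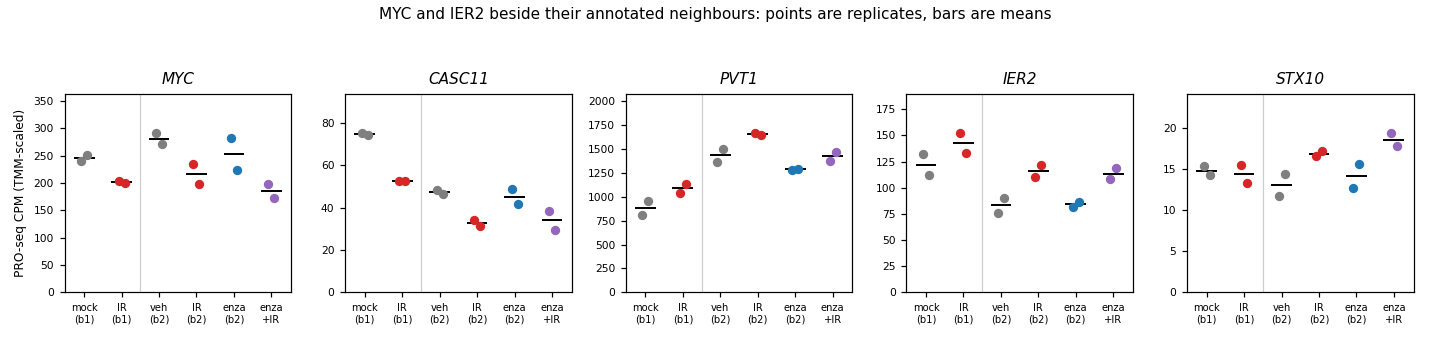
TMM-scaled CPM of MYC beside its noncoding neighbours CASC11 and PVT1, and of IER2 beside STX10, in every sample; points are replicates, bars are means, each axis starts at 0, and the vertical line separates the batches. CASC11 was lower in the irradiated samples of both batches (52.6 against 74 and 75 CPM in batch 1), while PVT1 and, in batch 2, STX10 stood higher after IR; the batch 1 points sum t1 and t2 libraries, in which the changes of PVT1 (-0.30 and 1.05) and STX10 (0.35 and -0.48) had opposite signs.

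JUND (ENSG00000130522, chromosome 19, 18279694 to 18281622), the JUN family member that is transcribed steadily in most cells, was at 55.8 and 58.7 CPM in vehicle and 64.4 and 84.7 after IR. Under enzalutamide the values were 51.6 and 50.2, and under enzalutamide with IR 65.4 and 72.4. The irradiated samples did not overlap the others, although the 2 irradiated vehicle samples were far apart. The change was 0.40 with vehicle (SE 0.117, edgeR adjusted p = 0.193, and 0.00529 with the replicate block), 0.45 under enzalutamide (adjusted p = 0.161, and 0.00304 with the block) and 0.42 averaged (SE 0.0778, adjusted p = 0.00586). With each library left out the averaged adjusted p was between 0.000787 and 0.032. In batch 1, JUND was at 142 and 143 CPM in mock and at 143 and 118 after IR, a change of -0.13 (adjusted p = 0.804) that was 0.47 in t1 alone (adjusted p = 0.0594) and -0.68 in t2 alone (adjusted p = 0.00069).

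JUNB (ENSG00000171223, chromosome 19, 12791486 to 12793315), a JUN family member that competes with JUN for FOS partners, was at 68.5 and 73.1 CPM in vehicle, 71 and 99.6 after IR, 65.7 and 75.3 in enzalutamide, and 81 and 86 in enzalutamide with IR. Irradiated vehicle replicate 3 lay within the unirradiated range. The averaged change was 0.27 (SE 0.0875, edgeR adjusted p = 0.0938), and the adjusted p was 0.00272 with the replicate block, 0.0205 without that replicate, 0.0318 with DESeq2 and 0.00519 without the filter on low counts. JUNB overlaps HOOK2 in the annotation, and HOOK2 was at 0.19 (adjusted p = 0.0501), so the count of JUNB is uncertain. In batch 1, JUNB was at 257 and 241 CPM in mock and 249 and 204 after IR, which overlapped. The change was -0.14 (SE 0.14, adjusted p = 0.803), 0.39 in t1 alone (adjusted p = 0.156) and -0.81 in t2 alone (adjusted p = 0.000459).

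JUN (ENSG00000177606, chromosome 1, 58780791 to 58784047), the founding AP-1 partner, was at 93.6 and 76.7 CPM in vehicle and 91.3 and 80.4 after IR. In enzalutamide it was at 84 and 75, and in enzalutamide with IR at 80.2 and 78, so that irradiated and unirradiated samples overlapped throughout batch 2. Its averaged change was 0.02 (SE 0.0719, edgeR adjusted p = 0.92), with an interval that reaches no further than 0.17, and the sign turned to -0.01 with total-count scaling. In batch 1, JUN was at 187 and 172 CPM in mock and at 164 in both irradiated samples, below them without overlap. That change was -0.13 (SE 0.121, adjusted p = 0.778), 0.01 in t1 alone and -0.27 in t2 alone (adjusted p = 0.0792). The divergent noncoding gene JUN-DT, listed as LINC01135 and lying 1104 bases away, was at -0.24 averaged over batch 2 (SE 0.0893, adjusted p = 0.144).

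FOS (ENSG00000170345, chromosome 14, 75278828 to 75282230), the archetype of this class, was transcribed at a low level in batch 2. It was at 8.52 and 5.78 CPM in vehicle, 6.35 and 6.03 after IR, 8.08 and 3.52 in enzalutamide and 4.79 and 6.1 in enzalutamide with IR, from 38 to 160 counts per library. These groups overlapped, and the averaged change was -0.17 (SE 0.208, edgeR adjusted p = 0.685). In batch 1 the gene was at 35.6 and 24.1 CPM in mock and at 23.7 and 16.8 after IR, just without overlap. The change there was -0.56 (SE 0.194, edgeR adjusted p = 0.217). With the replicate block the adjusted p was 8.14e-05, in a fit with few residual degrees of freedom.

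FOSB (ENSG00000125740, chromosome 19, 45467996 to 45475179), a FOS family member with the same partners, followed FOS. It was at 44.7 and 30 CPM in mock and 24.5 and 21.3 after IR in batch 1. It fell by 0.70 on the log2 scale (SE 0.167, edgeR adjusted p = 0.0436, and 8e-07 with the replicate block), the only 1 of the 10 genes to pass in batch 1, where 2.82% of 25889 genes did and 0.819% as lower. The call was lost without mock replicate 1 (-0.39, adjusted p = 0.199), with total-count scaling (0.0749) and with DESeq2 (0.0511). In batch 2 it was at 14.9 and 7.58 CPM in vehicle and at 7.63 and 11 after IR, with an averaged change of -0.27 (SE 0.218, adjusted p = 0.499).

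The lower FOS and FOSB of batch 1 were seen when t2 libraries were compared with t2, and not when t1 were compared with t1. FOS was at 38.8 and 41.7 CPM in mock t2 and at 17.3 and 15.8 in irradiated t2, but at 30.6 and 11.9 in mock t1 and 27.5 and 18.3 in irradiated t1. Between libraries of the same t number, only t2 separated the groups. The change of FOS was -1.28 in t2 alone (edgeR adjusted p = 1.8e-05) and 0.20 in t1 alone (adjusted p = 0.686), and for FOSB it was -1.27 (adjusted p = 6.3e-06) and 0.02 (adjusted p = 0.972). Mock t2 also lay above irradiated t1, the library it resembled more, for FOS and for FOSB (51.8 and 49.5 against 26.5 and 22.3 CPM). Mock t1 and irradiated t2 overlapped for both (33.9 and 16.5 against 21 and 20.9 CPM for FOSB). These cross pairings were not tested, nor was the source of the fall. The t2 libraries alone called 5 of the 10 genes, FOS, FOSB, JUNB, JUND and MYC, all lower, where 44.7% of all genes passed, and the t1 libraries alone called IER2 and IER5, both higher, where 17.3% passed.

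The difference between these radiation changes was tested itself. It was below 0 for all 10 genes and passed for 6 of them, in a comparison where 40.9% of 23335 genes passed and 20.8% passed as lower. The 6 were FOS, FOSB, JUNB, JUND, IER5 and IER2. FOSL2, JUN, EGR1 and MYC did not pass. Since t2 minus t1 ran in opposite directions in mock and irradiated samples across the genome (r = -0.768 over 15493 genes), this difference is no property of these 10 genes alone. Among 37 other immediate early genes tested, 22 were lower and 1 higher, with a median of -1.005 against -0.073 over all genes.

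**Figure D3:**
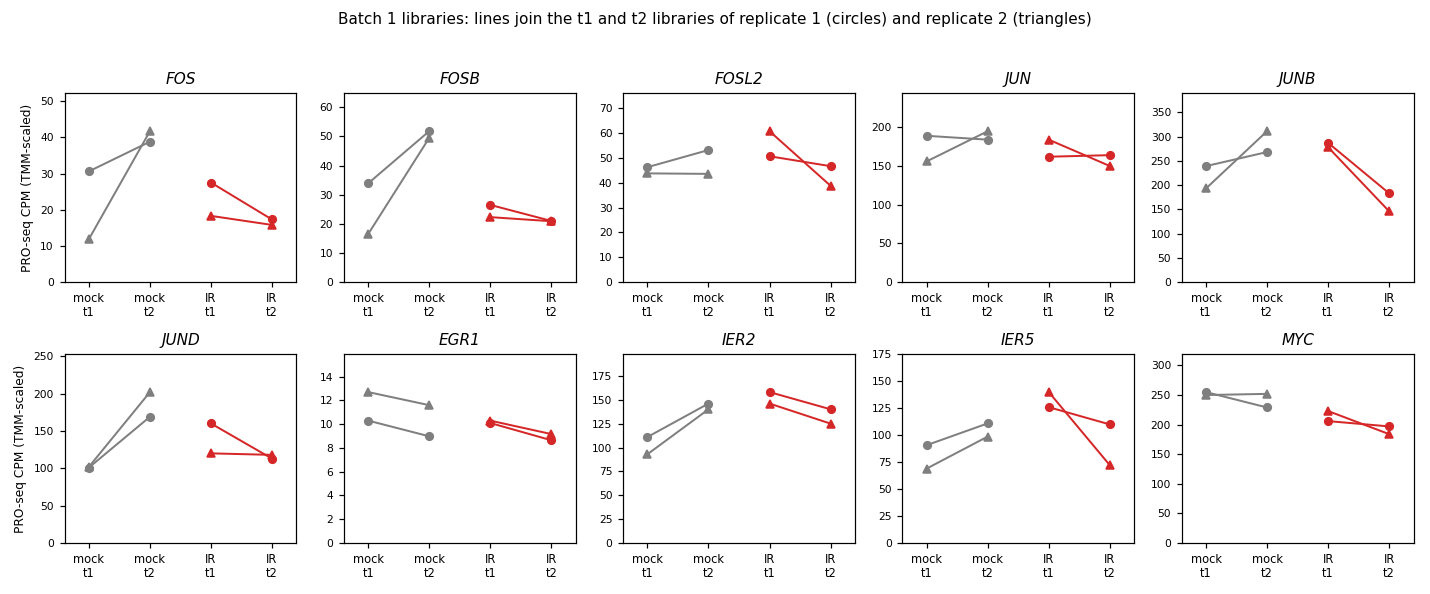
TMM-scaled CPM of the 10 genes in the 8 libraries of batch 1, with the t1 and t2 libraries of a replicate joined by a line (circles for replicate 1, triangles for replicate 2; mock in grey, IR in red; axes from 0). In FOS, JUND and IER5 the grey lines rise from t1 to t2 while the red ones fall. In FOS replicate 2 they go from 11.9 to 41.7 in mock and from 18.3 to 15.8 after IR. MYC went from 255 to 229 and from 250 to 252 in mock, and from 206 to 197 and from 223 to 184 after IR.

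FOSL2 (ENSG00000075426, chromosome 2, 28392858 to 28417317), the FOS family member with the longest gene body here, was at 37.1 and 36.7 CPM in vehicle and 43 and 42.1 after IR, and at 34.7 and 32.9 in enzalutamide and 40.3 and 37 with enzalutamide and IR. Within each treatment the irradiated pair was higher. The averaged change was 0.21 (SE 0.0625, edgeR adjusted p = 0.0702, and 0.0121 with the replicate block), and in batch 1, with 50.6 and 43.9 CPM in mock and 49.4 and 48.3 after IR, it was 0.05 (0.31 in t1 and -0.20 in t2 alone, neither past the threshold). FOSL2-AS1 overlaps this gene, which makes its count uncertain in the same way as that of JUNB. EGR1 (ENSG00000120738, chromosome 5, 138465479 to 138469303) was at 3.9 and 4.64 CPM in vehicle and 5.27 and 6.34 after IR, and at 4.95 and 3.25 in enzalutamide and 5.11 and 6.17 with enzalutamide and IR. The irradiated samples were higher without overlap, on 35 to 98 counts per library. The averaged change was 0.44 (SE 0.158, adjusted p = 0.128), and the interval from 0.10 to 0.78 shows how little these counts can resolve. In batch 1, EGR1 was at 9.56 and 12.2 CPM in mock and 9.59 and 9.6 after IR, a change of -0.19 (adjusted p = 0.783) that was -0.19 in t1 and -0.18 in t2 alone.

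**Figure D4:**
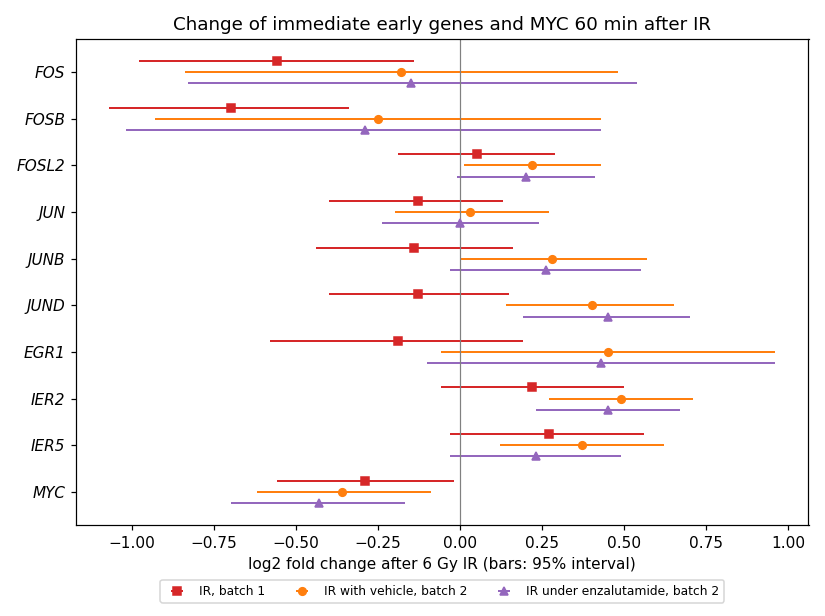
Log2 fold change of each gene 60 min after 6 Gy in batch 1 (squares), with vehicle in batch 2 (circles) and under enzalutamide in batch 2 (triangles), with 95% intervals as horizontal bars and 0 as the vertical line. MYC lies below 0 and IER2 above it in all 3 settings, at 0.22, 0.49 and 0.45 for IER2, and FOSB has its lowest value in batch 1, at -0.70.

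The replicate number, shared by the groups of a batch, narrowed the errors when it was used as a block. With it, the count of these genes that passed after IR was 4 in batch 1 (9.01% of all genes), 4 with vehicle (4.59%), 3 under enzalutamide (3.32%) against 0 without the block (0.918% of all genes, with 3 of the 10 against 9.49% of all at an unadjusted p under 0.05), 6 averaged over enzalutamide (15.0%) and 4 over both batches (6.69%). Over both batches these were FOS, IER2, IER5 and MYC, with edgeR adjusted p of 0.0275, 0.00215, 0.00552 and 0.000311. In batch 1 alone the block fit left few residual degrees of freedom. Its small p-values there rest largely on the spread shared over all genes, not on these replicates.

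Enzalutamide moved none of the 10 genes past the threshold. Averaged over IR, 0 of 10 passed in edgeR, where 18 of 28651 genes did (0.0628%), and 0 passed in DESeq2 or with the replicate block, which called 0.949% of all genes. MYC was the only 1 at an unadjusted p under 0.05, a level that 6.21% of all genes reached, at -0.18 (SE 0.0817, adjusted p = 0.802, and 0.0837 with the block), with an interval from -0.35 to 0.00. All 10 changes were below 0 (median -0.125, against 0.001 over all genes), from -0.33 for FOSB (SE 0.218, adjusted p = 0.871) to a value that rounds to 0 for IER2 (SE 0.0662). With total-count scaling 8 of the 10 were below 0, and with DESeq2 or the block 9 were. Without IR and with IR separately, 0 of the 10 passed as well, where 0.0105% of all genes did in each case, and 0 did so at an unadjusted p under 0.05, where 2.56% of all genes did without IR and 3.00% with IR. MYC was at 281 ± 13.2 CPM in vehicle (SD, n = 2) and 253 in enzalutamide, and at 217 after IR with vehicle and 186 after IR with enzalutamide.

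An interaction term asked whether the radiation changes of these genes depended on enzalutamide. The radiation change under enzalutamide minus that with vehicle lay between -0.14 and 0.05 for the 10 genes. In edgeR 0 of them passed, 0 of 28651 genes passed at all, and at an unadjusted p under 0.05 there were 343 genes (1.20%) and 0 of these 10. The interaction passed for 0 of the 10 in DESeq2 and for 0 with the replicate block (0.00349% of all genes). With vehicle and under enzalutamide the changes of FOSL2 were 0.22 and 0.20, those of JUNB 0.28 and 0.26 and those of EGR1 0.45 and 0.43.

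The radiation changes of the 2 batches were not shown to differ for any of the 10 genes. The difference, batch 1 minus batch 2 with vehicle, ran from -0.67 for EGR1 to 0.05 for MYC, and 0 of 10 passed where 0.106% of all genes did, with 3 of 10 at an unadjusted p under 0.05 against 5.66% of all genes. With the t2 libraries alone 5 of 10 passed, FOS, FOSB, JUNB, JUND and IER2, where 20.3% of all genes did, and with the t1 libraries alone 0 did (1.66% of all genes). With the replicate block 0 passed as well, where 0.329% of all genes did.

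The levels before irradiation stood further apart between the batches, for most of these genes, than the levels before and after IR within a batch. They are set side by side without a test, since the batch and the mock or vehicle label cannot be told apart. By this measure mock in batch 1 stood above vehicle in batch 2 by 4.17 times for FOS, 4.16 for IER5, 3.52 for JUNB, 3.32 for FOSB, 2.55 for EGR1, 2.49 for JUND and 2.11 for JUN. IER2, at 1.46, FOSL2, at 1.28, and MYC, at 0.875, were closer to the median over 17426 genes, 0.974. Of all these genes 11.1% had a ratio over 2, and 1.39% had one higher than FOS. KLK3 showed a still larger gap, at 179 CPM in mock and 15.4 in vehicle.

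Per length of the gene, which allows genes to be compared, JUNB led the levels in mock at 136 CPM per kilobase, followed by JUND at 73.6, JUN at 55.3, MYC at 32.7, IER2 at 27.1 and IER5 at 21.9. In vehicle JUNB (38.7) and MYC (37.4) were nearly level, ahead of JUND (29.7), JUN (26.1) and IER2 (18.6). IER5 was at 5.28 there, FOS at 2.1, FOSB at 1.57, FOSL2 at 1.51 and EGR1 at 1.12. In vehicle the gaps per kilobase between JUNB and MYC, between JUND and JUN and among FOS, FOSB and FOSL2 were no wider than the SD between replicates of 1 gene of each set, so those neighbours in the order were not separated. A PRO-seq count over a whole gene adds polymerases paused near the start to those in the body, and short genes such as JUNB and JUND weigh the paused ones more.

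Across the 12 samples, after the mean of each batch was removed, the levels of FOS and FOSB ran together (r = 0.891), as did JUNB and JUND (0.875) and FOSL2 and IER5 (0.844), while IER2 and MYC ran opposite (-0.842). These values share their libraries, depth and treatment and are a description only. The genes nearest to FOS among 17426 were TBCCD1 (r = 0.944), ENSG00000288153 (0.931) and TIGD6 (0.927). Nearest to IER5 were PMAIP1 (0.927), a p53 target that promotes cell death, ESRP2 (0.923) and ENSG00000285884 (0.912). Nearest to MYC were ENSG00000286221 (0.979), PRNCR1 (0.969), a noncoding gene, and SPAG17 (0.954). Another of the 10 genes was among the 20 nearest only for FOSB, JUNB and JUND, with 1 each.

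The wider class of immediate early genes showed few changes. Of 39 tested in the averaged comparison of batch 2, 2 rose and 1 fell, where 2.80% of all genes rose and 1.91% fell, with a median of 0.07 on the log2 scale against -0.014 for all genes and 0.242 for the 10 genes above. NR4A1, an orphan nuclear receptor, rose by 0.39 (edgeR adjusted p = 0.0116), and ZFP36L1, which promotes the decay of mRNA, rose by 0.27 (adjusted p = 0.0218). KLF6, a zinc finger factor, was at 22.2 and 21.3 CPM in vehicle and 12 and 13.4 after IR, and at 43.6 and 43.1 in mock and 23.4 and 23.7 after IR in batch 1. The samples were clearly apart in both batches. KLF6 fell by 0.62 on average in batch 2 (SE 0.0973, adjusted p = 0.0016) and by 0.88 in batch 1 (SE 0.11, adjusted p = 4e-04), where ID1, an inhibitor of differentiation factors, fell by 0.73 (adjusted p = 0.0121). In t1 and t2 alone KLF6 was at -0.84 and -0.89 and ID1 at -0.49 (adjusted p = 0.133) and -1.03 (adjusted p = 0.000115). In batch 1, 2 of 39 passed, both lower, against 2.82% of all genes (0.819% lower), and over both batches, against 4.05% of all genes, 2 of 43 passed, DUSP4, a MAP kinase phosphatase (0.39, adjusted p = 0.0128), and KLF6.

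Neither the other AP-1 and ATF factors nor SRF and its partners yielded a call after IR in the averaged comparison, with 0 of 21 and 0 of 11 in edgeR, against 5 and 2 at an unadjusted p under 0.05, a level that 21.8% of all genes reached. Of 27 MAP kinases, their activators and their substrate kinases, 6 rose and 1 fell, where 2.80% of all genes rose and 1.91% fell. MAPK11, the p38 beta kinase, was at 3.35 and 4.23 CPM in vehicle and 8.58 and 11 after IR, and at 2.61 and 3.28 in mock and 13.3 and 13.7 after IR in batch 1. It rose by 1.29 on average (SE 0.155, adjusted p = 0.000136) and by 2.18 in batch 1 (adjusted p = 4.59e-05), where it was at 1.94 in t1 and 2.47 in t2 alone. MAPK12, also a p38 kinase, rose by 0.37 and the activators MAP2K3, MAP2K4 and MAP2K2 by 0.29, 0.26 and 0.25. The substrate kinase RPS6KA1 rose by 0.24 (edgeR adjusted p = 0.0218), while MAPK10, a JNK, fell by 0.21 (adjusted p = 0.0463).

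In the MYC network 2 of 22 rose and 2 fell, in the same comparison, which called 4.71% of all genes (2.80% higher and 1.91% lower). MNT and MXD4, which pair with MAX and repress, rose by 0.32 and 0.24 (edgeR adjusted p = 0.0147 and 0.0163), and MXD3, of the same family, and CASC11 fell by 0.30 and 0.46 (adjusted p = 0.0104 and 0.00693). Of 38 genes known as MYC targets, 4 rose and 0 fell, with a median of 0.135 against -0.014 for all genes. WDR43, a factor of ribosome assembly, was at 168 and 162 CPM in vehicle and 259 and 223 after IR, without overlap. It rose by 0.49 on average (SE 0.0722, adjusted p = 0.000977), E2F1, which drives entry into S phase, by 0.48, PA2G4 by 0.28 and IMPDH2, an enzyme of guanine nucleotide synthesis, by 0.24. In batch 1 WDR43 alone of this list passed, at 0.66 (adjusted p = 0.0114), with the t libraries summed. It was at 0.36 in t1 alone (adjusted p = 0.139) and 0.98 in t2 alone (adjusted p = 3.6e-05), a difference that passed (0.60, adjusted p = 0.0319).

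**Figure D5:**
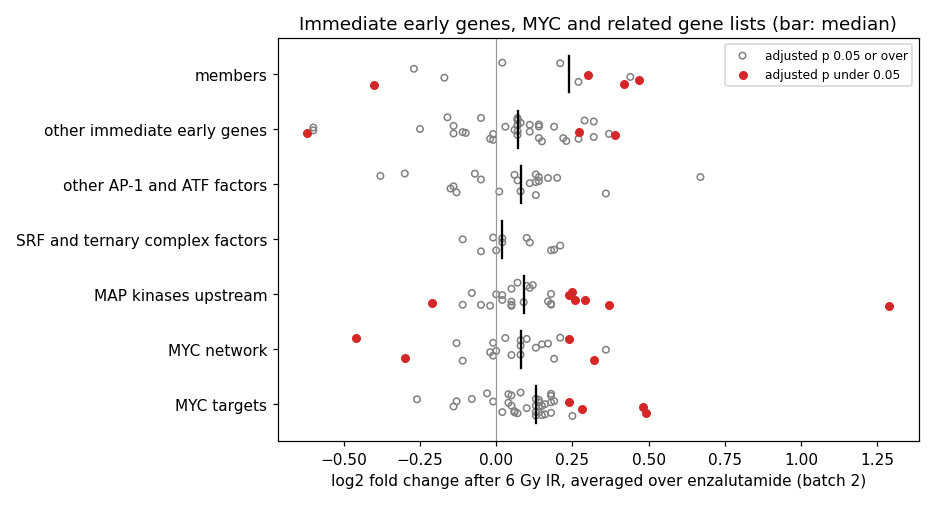
Log2 fold change 60 min after IR, averaged over enzalutamide in batch 2, for the 10 genes (top row) and 6 related lists; each point is a gene, red where the adjusted p was under 0.05, and the black bar is the median of the row. Most points are open and lie within 0.25 of 0; MAPK11 at 1.29 and KLF6 at -0.62 are the red points farthest out.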

How the data were processed

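PRO-seq libraries of LNCaP cells were analysed from 2 tables of raw read counts per Ensembl gene, 1 for each batch, which the authors deposited. Per the submitters' processing notes, cutadapt 1.8.1, Bowtie2 2.4.4, SAMtools 1.9 and the hg38 build were used. The counting tool, annotation, use of strand and treatment of duplicate reads are not given in the sources used here. Of 60605 identifiers, 60463 (99.8%) matched a table of gene names.

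Counts of the t1 and t2 libraries were summed within a batch 1 replicate. Genes were kept by filterByExpr by group, scaled by TMM and tested with the quasi-likelihood test of edgeR 4.0.16 in R 4.3.3, with two-sided p-values adjusted by Benjamini and Hochberg over all genes tested and a threshold of 0.05. For models of the t1 and t2 libraries kept apart, and fits of only the groups compared, filterByExpr used the model design instead. Batch 2 was fitted over all its 4 groups, with an interaction term for the separate changes and the interaction. The changes averaged over enzalutamide or over IR came from an additive model without that term. That additive model takes each change as equal in both arms of the other treatment. The joint fit of the batches had a batch term. SE were derived from the log2 change and the F statistic, and 95% intervals from the t distribution. CPM are TMM-scaled within a batch. DESeq2 1.42.0, other scalings, no filter, the t libraries apart and each replicate left out were alternatives. The steps were tested on simulated data.

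Same-numbered replicates of different groups deviated together, with correlations across genes of 0.363 in batch 1 and 0.262 to 0.473 in batch 2, where the number comes from the labels. A fit with the replicate number as a block is therefore given beside a result where it changes the call. In batch 1 the summed replicates held t1 and t2 in unequal parts. In mock these were 3438642 and 4584347 counts for replicate 1, and 5633290 and 3583636 for replicate 2. After IR they were 7625459 and 4993789 for replicate 1, and 7488015 and 9363458 for replicate 2. The part of this mixture in the batch 1 correlation, and so in the block fit there, was not tested.

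The 10 genes, the related lists and the tests were chosen with earlier results of these data known. Named were all 10, and at most 5 genes per related list with the largest change past the threshold. For the MAP kinase list all 7 that passed in the averaged comparison were named. The 3 genes most correlated with FOS, IER5 and MYC (mean of at least 50 counts in each batch) were named too, with neighbouring or label-checking genes. Of the markers of LNCaP cells first listed, 2 are not reported here.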

Additional observations from a re-analysis of the deposited data

Results flagged for a closer look

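In batch 1, the radiation change of 6 of the 10 genes differed between the t2 and the t1 libraries, by an interaction test in edgeR over the 8 libraries. The change in t2 was lower than that in t1 by a log2 difference of -1.46 for FOS (adjusted p = 0.00305), -1.29 for FOSB (0.00141), -1.22 for JUNB (0.00115), -1.14 for JUND (0.000827), -0.98 for IER5 (0.00414) and -0.70 for IER2 (0.0121). With DESeq2 5 of these passed and IER2 did not (adjusted p = 0.0531), and with total counts or without the filter FOSL2 passed too, which made 7 (adjusted p = 0.0196 and 0.0425). The same test called 40.9% of all genes, and 20.8% as lower. These are the shares that 6 of 10, all lower, are to be read against. What t1 and t2 stand for is not given by the labels, and no cause was tested.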

How the results depend on the processing

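Counts of the 10 genes past the threshold after IR moved with several choices. In batch 1 the count was 1, and it was 0 with total-count scaling or DESeq2, 2 without the filter, 4 with the replicate block, 2 with the t1 and 5 with the t2 libraries alone, and 1 to 2 with a replicate left out. With vehicle it was 1, and it was 0 with total counts, 3 without the filter (JUND and MYC gained), 4 with the block and 0 to 1 with a replicate left out. Under enzalutamide it was 0, and it was 3 without the filter (IER2, JUND and MYC), 1 with DESeq2 (IER2), 3 with the block and 0 to 1 with a replicate left out. Averaged over enzalutamide it was 4, and it was 3 with total counts (IER5 lost, adjusted p = 0.0628), 5 without the filter or with DESeq2 (JUNB gained in both), 6 with the block and 2 to 4 with a replicate left out. Over both batches it was 2, with IER5 just outside the threshold (0.30, edgeR adjusted p = 0.0512). The count there was 3 with RLE scaling or with DESeq2 (IER5 gained in both), and 4 without the filter or with the block. It was 0 with the t2 libraries alone and 0 to 4 with a replicate left out. The difference between batches called 0, and 5 with the t2 libraries alone. The replicate block changed no call of enzalutamide or of the interaction, which stayed at 0 of the 10 genes. Keeping the 8 libraries of batch 1 apart, an alternative chosen after seeing the data, called 1. Without the filter more genes of few counts enter the shared estimate of spread.

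Of the changes of single genes under an alternative, 638 kept sign and side of the threshold, 46 newly passed, 32 no longer passed and 30 turned sign. The cause of these turns was not tested. In batch 1 the t1 libraries alone gave 0.197 for FOS, 0.0167 for FOSB, 0.0142 for JUN, 0.395 for JUNB and 0.472 for JUND, and the t2 libraries alone gave -0.201 for FOSL2, -0.109 for IER2 and -0.215 for IER5. Over both batches t2 alone gave -0.264 for JUNB and -0.138 for JUND. JUN turned to -0.00373 with vehicle, -0.0172 under enzalutamide and -0.0104 averaged with total counts, and to -0.00309 under enzalutamide with only the 2 groups fitted. With a replicate left out, ranges crossed 0 in batch 1 for EGR1 (-0.355 to 0.000228) and FOSL2 (-0.0565 to 0.154), with vehicle for FOS (-0.433 to 0.112), FOSB (-0.659 to 0.301) and JUN (-0.0959 to 0.176), under enzalutamide for FOS (-0.556 to 0.653), FOSB (-0.638 to 0.3) and JUN (-0.0784 to 0.0977), averaged for FOS (-0.334 to 0.0749) and JUN (-0.0375 to 0.0726), and over both batches for JUN (-0.131 to 0.00239) and JUNB (-0.0518 to 0.185). The difference between t2 and t1 called 6, and it was 5 with DESeq2 and 7 with total counts or without the filter. Leaving out a replicate number with all its libraries was not run for it, since it leaves no residual degrees of freedom. Depth limits FOS and EGR1 in batch 2, at 38 to 160 and 35 to 98 counts per library.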

Other observations

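The gene with levels most similar to those of EGR1 among 17426 was SRF (r = 0.951 over 12 samples, batch means removed). It was picked out after its value was seen, EGR1 rests on at most 98 counts per library in batch 2, and the points share libraries and depth, so this is a description only.

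Among other immediate early genes, PPP1R15A, which encodes a stress-induced phosphatase subunit, and GADD45B, a stress sensor, also stood higher in batch 1 mock than in batch 2 vehicle, at 75 ± 33.1 against 9.17 ± 1.77 CPM and 183 ± 10.5 against 36.9 ± 4.78 CPM (SD, n = 2). DUSP1, a MAP kinase phosphatase, was at 199 ± 20.1 against 64.6 ± 1.31. NR4A1 was at 32.3 ± 0.261 and 32.2 ± 2.72. These 4 genes were picked out after their values were seen, and no test compares the batches.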
